A study of Mus musculus with 12 samples.

Results

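The imprinted growth genes described here are 10 mouse genes that control fetal growth and are transcribed mainly from 1 parental copy. They were taken as the rows of the deposited expression table that carry the symbols H19, Igf2, Igf2r, Dlk1, Peg3, Mest, Cdkn1c, Grb10 and Plagl1, and the row of Meg3, which the table holds under its older symbol Gtl2 (Entrez 17263). Thus 9 of the 10 members matched by symbol and the last by its Entrez identifier, out of 23427 rows in all. All 10 had a value in each of the 4 RNA libraries and passed the filter on low values, which left 10991 genes to compare. The rule that picks them uses their names and no measured value, but the set was chosen with earlier results of these data known.

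The study asked which genes respond when Hey1 or Hey2, repressors of transcription that act after Notch, are switched on by doxycycline. RNA-seq covered 4 libraries from murine embryonic stem cells of the line CM7/1 that had been differentiated in culture and are labelled cardiomyocytes, each with 1 of the 2 genes under doxycycline control. The induced Hey2 line had received 1000 ng/ml doxycycline over 48 h and the uninduced Hey2 line is its untreated control. The induced Hey1 line had the same dose and time, and the uninduced Hey1 line is its control. Each of these 4 groups is 1 library, so no difference here has a replicate check, and an effect of doxycycline cannot be told apart from one of the induced gene. Another 8 samples, made by chromatin immunoprecipitation, were not analysed here.

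The libraries held between 2296145 and 4182141 reads in listed genes. Hey2 was listed at 6.59 RPKM (reads per kilobase, corrected for sequencing depth) in the induced Hey2 line, was blank in the uninduced Hey2 line, and stood at 0.895 and 0.694 RPKM in the induced and uninduced Hey1 line. Hey1 stood at 8.59 RPKM in the induced and 0.735 RPKM in the uninduced Hey1 line, against 0.481 and 1.18 RPKM in the induced and uninduced Hey2 line. The cell type label held unequally for the 2 lines. Summed over 10 cardiomyocyte markers, such as Myh6 and Tnnt2, the level was 1113 RPKM in the induced and 1091 RPKM in the uninduced Hey2 line, against 18911 and 18364 RPKM in the induced and uninduced Hey1 line. The sum over 10 pluripotency markers, such as Pou5f1 and Nanog, ran the other way, at 437 and 419 RPKM in the induced and uninduced Hey2 line, against 31.4 and 40.7 RPKM in the induced and uninduced Hey1 line. Lists of 10 markers each for endoderm, fibroblasts and mesenchyme, endothelium, neurons, skeletal muscle and trophoblast summed to 139 RPKM or less in every library, and Myog and Myod1 of skeletal muscle were blank in all 4. In these bulk libraries, fewer cells of a type and less RNA per cell cannot be told apart.

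Genomic imprinting marks the copies of a gene by their parent of origin, so that mainly the copy from 1 parent is transcribed. Many paternally expressed genes, such as Igf2, favour growth of the fetus, and several maternally expressed ones, such as Igf2r, Grb10 and Cdkn1c, restrain it. Imprinted genes lie in clusters: Igf2 and H19 lie next to each other and share enhancers, and the protein gene Dlk1 lies beside the non-coding RNA gene Meg3. In the heart and skeletal muscle many of them are high before birth and are turned down as growth slows. The values here are totals over both copies, so they say nothing on which parental copy was transcribed.

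Some of these genes are hosts of microRNAs, and short rows of the table lie inside them. RefSeq GRCm38.p6 places 9 mature microRNAs of 5 microRNA genes inside 4 of the members, and 3 of these are printed because their genes have values in the table. The 2 products of Mir675, which is cut from the H19 transcript and is known to restrain growth of the placenta in mice, and miR-1906, whose gene lies in Meg3, read as follows, with the seed, bases 2 to 8, in capitals.

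mmu-miR-675-5p: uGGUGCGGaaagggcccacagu

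mmu-miR-675-3p: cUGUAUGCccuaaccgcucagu

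mmu-miR-1906: uGCAGCAGccugaggcagggcu

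No 2 of these 3 share a seed.

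Promoter windows, from 250 bases before to 50 after the start of transcription, were found in the RefSeq GRCm38.p6 table for 8 members, 15 windows in all. They were searched on both strands for CACGTG, an E-box that Hey proteins and other factors of their class can bind, for the related CACGCG, and for GGGGCCCC, which the Plagl1 protein can bind. CACGTG occurred in 2 windows, those of Plagl1 and Igf2r, and in 7.15% of 32851 mouse promoters. CACGCG occurred in 1 window, that of Igf2r, and in 9.27% of promoters, and GGGGCCCC in the window of Peg3 and in 1.08% of promoters. The windows of Plagl1, the member with the largest difference in an induction, and of Igf2r are printed from the transcribed strand, with each CACGTG or CACGCG box in capitals, where CGCGTG is CACGCG read from the other strand.

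Plagl1, chr10:13090582-13090881, plus strand: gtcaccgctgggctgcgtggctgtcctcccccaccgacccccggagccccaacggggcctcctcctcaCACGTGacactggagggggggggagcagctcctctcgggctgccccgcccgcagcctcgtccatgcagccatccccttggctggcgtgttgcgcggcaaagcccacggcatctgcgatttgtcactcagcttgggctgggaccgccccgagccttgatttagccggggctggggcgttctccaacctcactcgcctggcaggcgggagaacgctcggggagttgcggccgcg

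Igf2r, chr17:12769657-12769956, minus strand: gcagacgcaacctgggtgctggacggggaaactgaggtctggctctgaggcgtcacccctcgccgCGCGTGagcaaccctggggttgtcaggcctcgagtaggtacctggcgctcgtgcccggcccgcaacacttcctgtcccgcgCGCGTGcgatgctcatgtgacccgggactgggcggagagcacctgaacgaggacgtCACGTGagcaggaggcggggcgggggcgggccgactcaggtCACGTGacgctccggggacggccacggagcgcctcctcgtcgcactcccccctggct

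The boxes of the 2 printed windows do not overlap one another. A match of letters is a description and not a binding site, and a window without one says only that these letters are not in it.

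Between the lines, Grb10 and Meg3 were many-fold higher in the Hey2 line, and H19, Igf2 and Mest were lower there by more than 2-fold, whether or not the cells had been induced. Plagl1 was more than 2-fold lower between the induced lines, Igf2r and Cdkn1c were lower without passing that size, and Dlk1 and Peg3 differed least. Differences are of log2(RPKM + 1), so that the change of low genes is understated, and a member was called when it passed 2-fold on this scale. Between the uninduced lines 5 of 10 members passed in either direction, beside 32.8% of all compared genes. In the Hey2 line 2 of these were higher, beside 19.7% of all compared genes, and 3 lower, beside 13.1%. Between the induced lines 6 of 10 passed, beside 35.2% of all compared genes, with 2 higher beside 22.8% and 4 lower beside 12.3%. At a size of 1.5-fold 7 of 10 passed in each comparison, beside 56.1% between the uninduced and 58.1% between the induced lines. Of all genes past 2-fold, 60.1% were higher in the Hey2 line between the uninduced and 64.9% between the induced lines, and under median ratio scaling these shares were 48.0% and 48.2%. The members' median difference was -0.55 between the uninduced and -0.66 between the induced lines, against 0.20 and 0.27 for all compared genes. The 2 comparisons of lines use different libraries, but each shares its libraries with the comparisons of induced against uninduced cells. No value estimates the spread between cultures, and the part that the make-up of the cultures has in these differences was not tested.

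**Figure D1:**
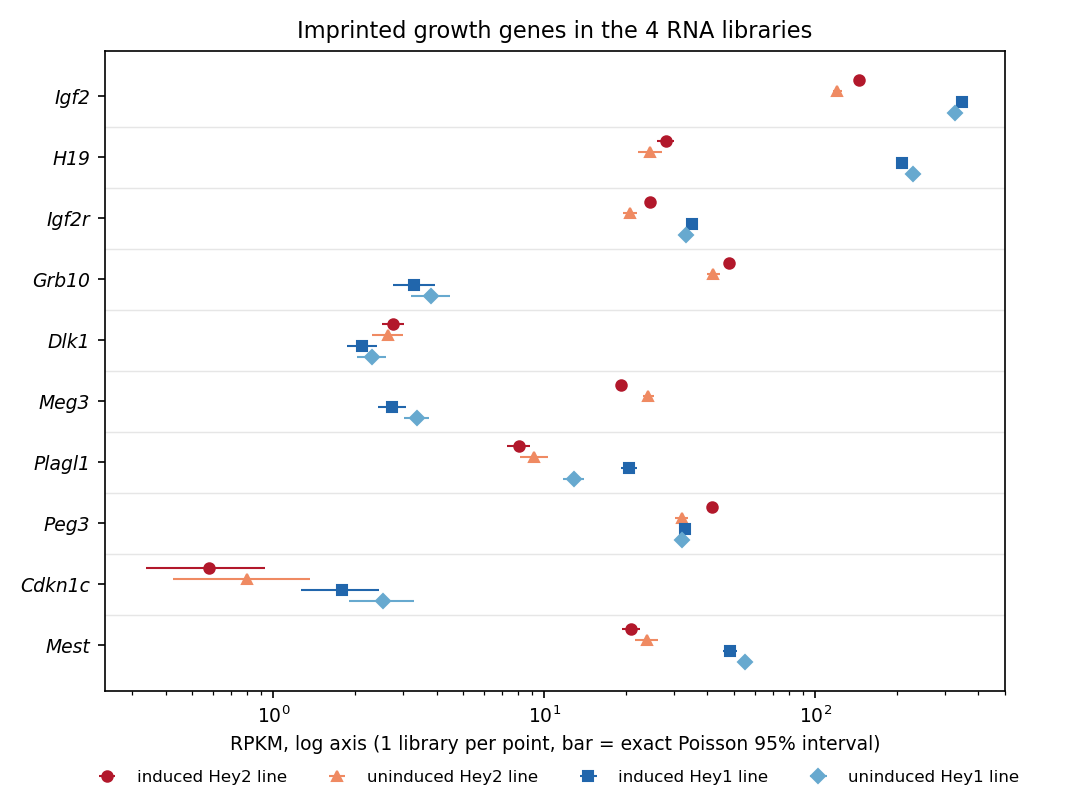
RPKM of the 10 imprinted growth genes (rows) on a log axis, with 1 point for each of the 4 libraries and bars for the exact Poisson 95% interval of counting error. Grb10 and Meg3 lie far to the right in the Hey2-line libraries, H19, Igf2 and Mest in the Hey1-line libraries, and Dlk1 and Peg3 lie close together in all 4.

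The order of the levels per length, seen in the plot of RPKM by library, was headed by Igf2 in all 4 libraries. In the induced and uninduced Hey2 line Grb10 and Peg3 came next, and in the induced and uninduced Hey1 line H19 and Mest. Neighbours in that order did not always differ beyond counting error. The intervals of Mest and Meg3 overlapped in the induced Hey2 line, and those of H19, Meg3 and Mest, and of Mest and Igf2r, in the uninduced Hey2 line. In both Hey1-line libraries the intervals of Igf2r and Peg3 overlapped, as did those of Grb10 and Meg3, of Dlk1 and Cdkn1c, and of Meg3 and Cdkn1c. In the uninduced Hey1 line those of Grb10 and Cdkn1c overlapped too. The levels of Dlk1 and Cdkn1c per length are uncertain, since their recovered lengths of 15198 and 2826 bases exceed the RefSeq gene spans of 10852 and 2721 bases. Ratios between libraries are free of this length.

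The ligand Igf2, a fetal growth factor that signals through the IGF1 and insulin receptors, was abundant everywhere. It stood at 145.5 RPKM in the induced and 120.7 RPKM in the uninduced Hey2 line, and at 347.7 and 329.1 RPKM in the induced and uninduced Hey1 line. The libraries of the lines did not overlap, with the Hey1 line high. Igf2 was 2.73-fold lower in the uninduced Hey2 line than in the uninduced Hey1 line (95% counting interval 2.62 to 2.84), and 2.39-fold lower between the induced lines (2.32 to 2.46). It made up 0.153% and 0.128% of the reads in listed genes of the induced and uninduced Hey2 line, against 0.352% and 0.327% in the induced and uninduced Hey1 line. An antisense row, Igf2as, overlaps it and was low, at 1.19 and 0.801 RPKM in the induced and uninduced Hey2 line, against 1.81 and 2.09 RPKM in the induced and uninduced Hey1 line. How the counting treated strand is not given in the sources used here, so reads of such partners cannot be told apart.

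H19, the maternally expressed non-coding RNA beside Igf2, showed a wider gap between the lines. Its levels were 28.1 RPKM in the induced and 24.5 RPKM in the uninduced Hey2 line, against 209.8 and 230.2 RPKM in the induced and uninduced Hey1 line. H19 was 9.38-fold lower in the uninduced Hey2 line than in the uninduced Hey1 line (8.43 to 10.5) and 7.47-fold lower between the induced lines (6.91 to 8.08). Only 81 of the 10991 compared genes had a more negative log2 difference between the uninduced lines. Within a library the ratio of H19 to Igf2 was 0.193 in the induced and 0.203 in the uninduced Hey2 line, against 0.603 and 0.699 in the induced and uninduced Hey1 line. The neighbours were thus lower together in the Hey2 line but not in proportion. Markers of visceral and yolk sac endoderm, a tissue known for high H19 and Igf2, summed to 18.1 and 18.9 RPKM in the induced and uninduced Hey2 line, against 53.7 and 72.5 RPKM in the induced and uninduced Hey1 line. Afp, at 0.970 and 1.42 RPKM in the induced and uninduced Hey2 line against 42.0 and 58.5 RPKM in the induced and uninduced Hey1 line, and Alb, blank in the Hey2 line and at 5.48 and 7.61 RPKM in the induced and uninduced Hey1 line, carried the higher sum. The sum of the other 8 markers ran the other way, at 17.1 and 17.5 RPKM in the induced and uninduced Hey2 line, against 6.23 and 6.37 RPKM in the induced and uninduced Hey1 line. Singly they did not all do so, since Ttr and Rbp4 lay lower in the Hey2 line. Of the 4 endoderm markers that could be compared, 1 was higher and 3 were lower there, both between the uninduced and between the induced lines. Apoa1 was blank in all 4 libraries, and Amn, Apob and Sox17 in both of the Hey1 line, where the listing floor is 10 reads and not 5. The part of such cells in the levels of H19 and Igf2 was not tested.

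The row of Mir675, with a recovered length of 84 bases inside H19, held 23 and 15 reads in the induced and uninduced Hey2 line, against 345 and 231 reads in the induced and uninduced Hey1 line. That is 26.4 and 31.1 RPKM in the induced and uninduced Hey2 line, against 547.6 and 371.6 RPKM in the induced and uninduced Hey1 line. The row was 12.0-fold lower in the uninduced Hey2 line than in the uninduced Hey1 line (7.11 to 21.7). In the Hey1 line it was 1.47-fold higher in the induced than in the uninduced library (1.24 to 1.75), while H19 as a whole stood at a ratio of 0.912. Reads of so short a row cannot be told apart from those of the host transcript, and their assignment is not given, so these values are no measure of the mature miR-675 printed above.

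Igf2r encodes the receptor that carries IGF2 to the lysosome for breakdown and does not signal growth itself. It stood at 24.5 and 20.8 RPKM in the induced and uninduced Hey2 line, and at 35.0 and 33.3 RPKM in the induced and uninduced Hey1 line. It was 1.60-fold lower in the uninduced Hey2 line than in the uninduced Hey1 line (1.49 to 1.73), under the 2-fold size, and 1.43-fold lower between the induced lines (1.35 to 1.51). The ratio of Igf2 to Igf2r was 5.93 and 5.81 in the induced and uninduced Hey2 line, against 9.93 and 9.89 in the induced and uninduced Hey1 line. The ligand thus stood higher over its clearance receptor in the Hey1-line libraries, by similar amounts with and without induction. Airn, the antisense RNA that silences the paternal Igf2r copy in mice, lay at 16.1 and 15.7 RPKM in the induced and uninduced Hey2 line, against 35.2 and 30.2 RPKM in the induced and uninduced Hey1 line. It overlaps Igf2r, so both rows are uncertain where strand was not kept apart.

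Grb10, an adaptor that binds the insulin and IGF1 receptors and dampens their signal, went the opposite way. It stood at 47.9 RPKM in the induced and 42.0 RPKM in the uninduced Hey2 line, against 3.31 and 3.83 RPKM in the induced and uninduced Hey1 line. Grb10 was 11.0-fold higher in the uninduced Hey2 line than in the uninduced Hey1 line (9.25 to 13.1) and 14.5-fold higher between the induced lines (12.1 to 17.4). Between the uninduced lines 37 compared genes lay further up, and between the induced lines 25. In the Hey2 line Grb10 was second of the members only to Igf2, and in the Hey1 line it was among the 4 lowest.

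**Figure D2:**
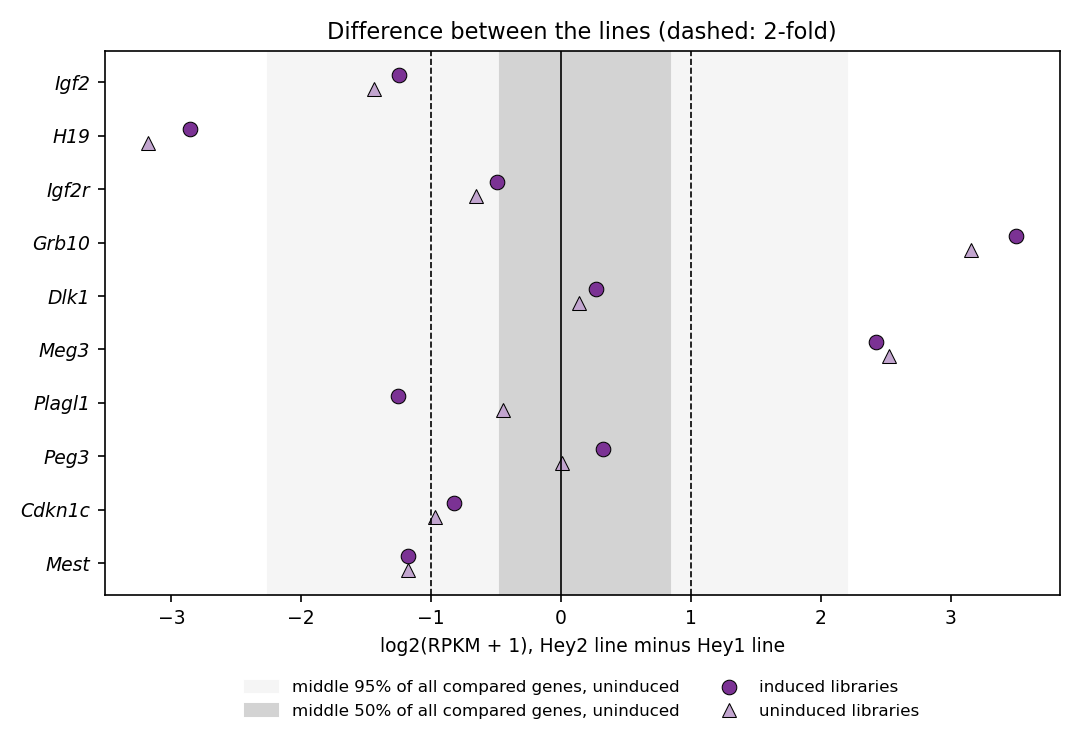
Difference in log2(RPKM + 1), Hey2 line minus Hey1 line, of each imprinted growth gene (rows), between the induced libraries (circles) and between the uninduced libraries (triangles). Grey bands hold the middle 95% and 50% of all compared genes between the uninduced libraries, and H19, Grb10 and Meg3 lie outside the wider band in both comparisons.

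Meg3, a maternally expressed non-coding RNA with growth-restraining activity in cell lines, was also high in the Hey2 line. It stood at 19.1 and 24.2 RPKM in the induced and uninduced Hey2 line, against 2.75 and 3.38 RPKM in the induced and uninduced Hey1 line. It was 7.17-fold higher in the uninduced Hey2 line than in the uninduced Hey1 line (6.37 to 8.08) and 6.98-fold higher between the induced lines (6.16 to 7.93). The Mir1906-1 row, whose microRNA is printed above, lies within Meg3 and held 28 and 23 reads in the induced and uninduced Hey2 line. It was blank in both Hey1-line libraries, which means fewer than about 10 reads there.

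Its neighbour Dlk1, a membrane protein of the Notch ligand type that holds back differentiation of fat and muscle precursors, did not follow Meg3. It stood at 2.77 and 2.64 RPKM in the induced and uninduced Hey2 line, and at 2.12 and 2.30 RPKM in the induced and uninduced Hey1 line. The ratio was 1.15 between the uninduced lines, with an interval that holds 1 (0.957 to 1.38), and its log2 difference of 0.14 turned to -0.02 under median ratio scaling. Between the induced lines Dlk1 was 1.30-fold higher in the Hey2 line (1.11 to 1.53), with an interval that held 1 under median ratio scaling (0.898 to 1.24) and upper quartile scaling (0.939 to 1.29). The ratio of Meg3 to Dlk1 within a library was 6.92 and 9.17 in the induced and uninduced Hey2 line, against 1.29 and 1.47 in the induced and uninduced Hey1 line. This ratio is per length and carries the doubt on the length of Dlk1, which is the same in every library.

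**Figure D3:**
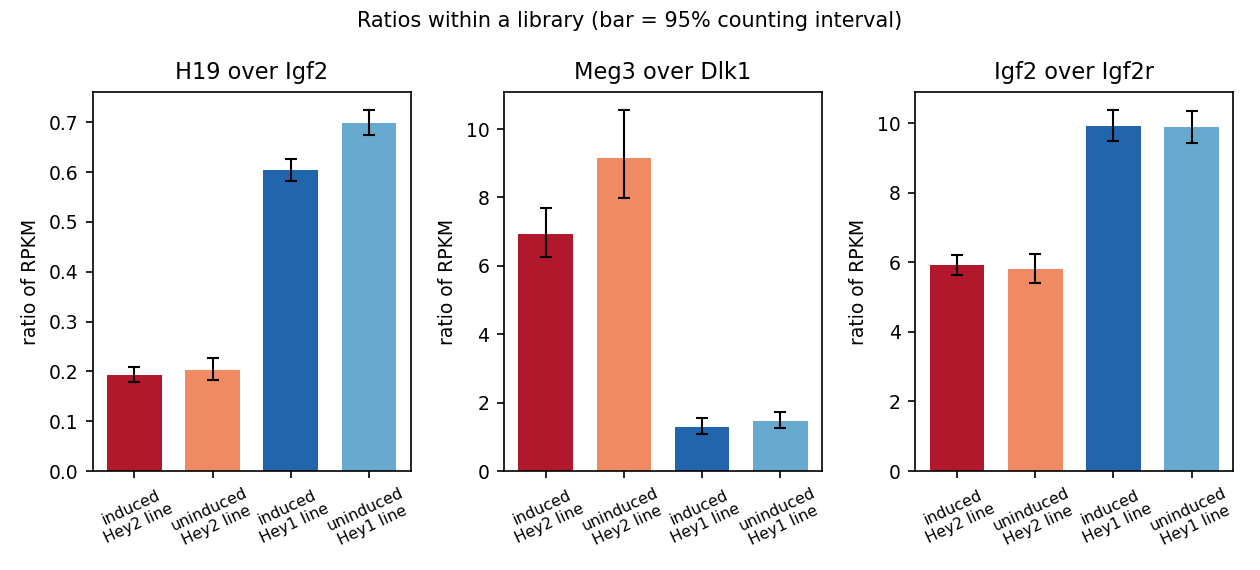
Ratio of RPKM within each of the 4 libraries (bars, with 95% counting intervals as lines) for H19 over Igf2, Meg3 over Dlk1 and Igf2 over Igf2r. H19 over Igf2 and Igf2 over Igf2r are lower, and Meg3 over Dlk1 is higher, in both Hey2-line libraries than in both Hey1-line libraries.

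The plot of ratios within a library sets these 3 pairs side by side. In each pair the 2 libraries of a line lie nearer to each other than to either library of the other line. For H19 over Igf2 and for Meg3 over Dlk1 the uninduced library lies above the induced one of the same line, though in the Hey2 line the intervals of H19 over Igf2 overlap (0.179 to 0.208 induced and 0.182 to 0.227 uninduced), as do those of Meg3 over Dlk1 in the Hey1 line (1.08 to 1.54 induced and 1.24 to 1.73 uninduced).

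Plagl1, a zinc finger transcription factor known in mice as a regulator of other imprinted genes, Igf2 and H19 among them, passed the 2-fold size between the induced lines but not between the uninduced ones. It stood at 8.04 and 9.16 RPKM in the induced and uninduced Hey2 line, against 20.6 and 12.9 RPKM in the induced and uninduced Hey1 line. The induced Hey1-line library is the high one. Plagl1 was 1.41-fold lower in the uninduced Hey2 line than in the uninduced Hey1 line (1.21 to 1.63), and 2.56-fold lower between the induced lines (2.28 to 2.88).

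Peg3, another paternally expressed zinc finger gene that affects growth and maternal behaviour in mice, was even across the uninduced lines. Its levels were 41.5 and 32.2 RPKM in the induced and uninduced Hey2 line, and 33.0 and 32.1 RPKM in the induced and uninduced Hey1 line. The ratio between the uninduced lines was 1.00 (0.930 to 1.08), a log2 difference of 0.00 that moved to -0.21 under median ratio scaling and -0.18 under upper quartile scaling. Between the induced lines Peg3 was 1.26-fold higher in the Hey2 line (1.18 to 1.34), but its interval held 1 under median ratio scaling (0.958 to 1.08). The overlapping Peg3os row, on the other strand, gave 44.7 and 32.2 RPKM in the induced and uninduced Hey2 line, against 41.5 and 30.0 RPKM in the induced and uninduced Hey1 line.

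Mest, a paternally expressed gene for a protein of the alpha/beta hydrolase fold, stood at 20.9 and 23.9 RPKM in the induced and uninduced Hey2 line. In the induced and uninduced Hey1 line it stood at 48.6 and 55.2 RPKM. It was 2.31-fold lower in the uninduced Hey2 line than in the uninduced Hey1 line (2.07 to 2.59) and 2.33-fold lower between the induced lines (2.11 to 2.57). Its neighbour Copg2, whose transcript overlaps that of Mest from the other strand, also lay lower, 2.45-fold between the uninduced lines (1.99 to 3.04) and 1.61-fold between the induced lines (1.35 to 1.93).

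Cdkn1c, which encodes the cyclin-dependent kinase inhibitor p57, was the lowest member in all libraries but the uninduced Hey1 line, where Dlk1 was lower, and rests on few reads. It had 17 and 13 reads in the induced and uninduced Hey2 line, against 38 and 53 reads in the induced and uninduced Hey1 line, or 0.580 and 0.800 RPKM against 1.79 and 2.53 RPKM. As a plain ratio it was 3.17-fold lower in the uninduced Hey2 line than in the uninduced Hey1 line (1.70 to 6.33) and 3.09-fold lower between the induced lines (1.70 to 5.84). On the log2(RPKM + 1) scale these were differences of -0.97 and -0.82, under the 2-fold size. Cdkn1c passed it between the uninduced lines under median ratio scaling (-1.09) and upper quartile scaling (-1.08), and between both the uninduced and the induced lines at a pseudocount of 0.1 RPKM (-1.55 and -1.48).

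By parental origin, the 5 maternally expressed members (H19, Igf2r, Meg3, Cdkn1c and Grb10) held 2 that were 2-fold higher in the Hey2 line, Grb10 and Meg3, and 1 that was 2-fold lower, H19, both between the uninduced and between the induced lines. Of the 5 paternally expressed ones (Igf2, Dlk1, Peg3, Mest and Plagl1), 0 were 2-fold higher, and 2 were 2-fold lower between the uninduced and 3 between the induced lines. By any amount, 2 were higher and 3 lower in each group between the uninduced lines, but the 2 paternally expressed ones that were higher, Dlk1 and Peg3, had intervals that hold 1 and turned sign under median ratio scaling. With 5 genes in a group these counts are a description only.

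Differences with induction were much smaller. No member passed 2-fold in the Hey2 line, where 0.0455% of all compared genes did, and none in the Hey1 line, where 0.136% did. At 1.5-fold, 0 members passed in the Hey2 line, beside 1.24% of compared genes, and in the Hey1 line 1 did, Plagl1, beside 2.47%. The members' median difference was 0.12 with Hey2 induction and -0.11 with Hey1 induction, against 0.00 and -0.06 for all compared genes.

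**Figure D4:**
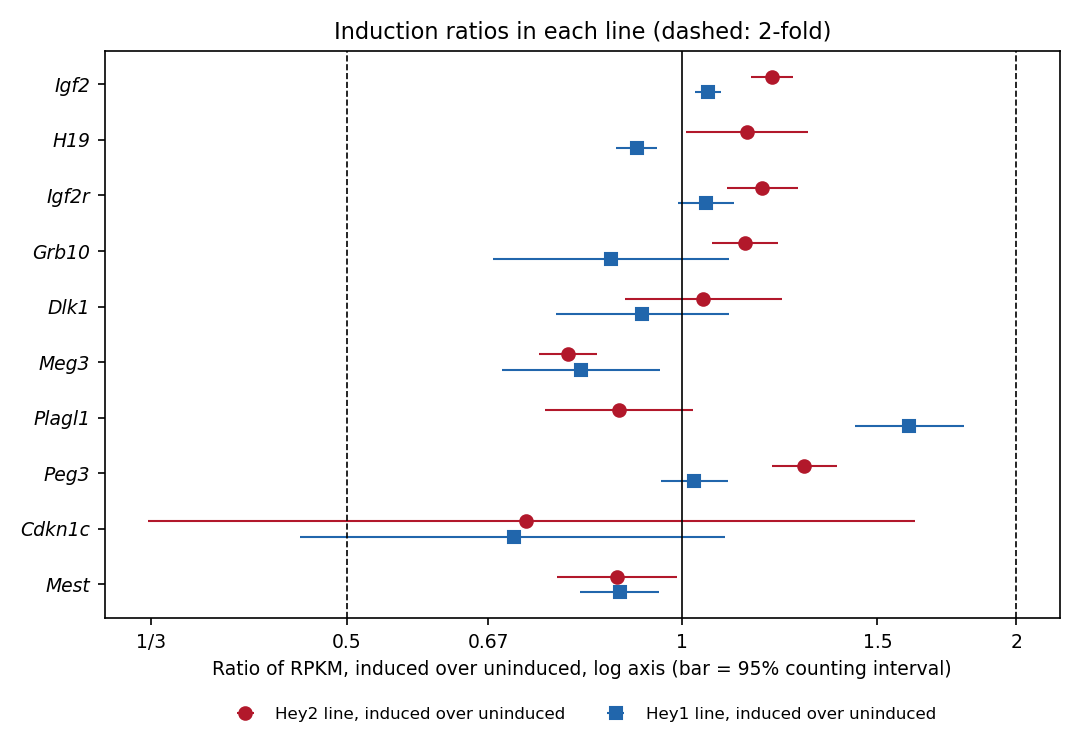
Ratio of RPKM, induced over uninduced, of each imprinted growth gene (rows) on a log axis, in the Hey2 line (circles) and in the Hey1 line (squares), with 95% counting intervals as bars. Plagl1 in the Hey1 line, at 1.60, is the farthest from 1 with an interval clear of it, and Cdkn1c has the widest intervals.

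With Hey1 induction Plagl1 was the member that differed most. It held 813 reads and 20.6 RPKM in the induced Hey1 line, against 501 reads and 12.9 RPKM in the uninduced Hey1 line, 1.60-fold higher (1.43 to 1.79). Only 37 of the 10991 compared genes lay further up in this comparison. In the same pair of libraries all 10 pluripotency markers were lower, summing to 31.4 RPKM in the induced and 40.7 RPKM in the uninduced Hey1 line. Their intervals lay above 1 for 0 and below 1 for 2. Of 10 cardiomyocyte markers 7 were higher, with intervals above 1 for 5 and below 1 for 2. Of 7 compared markers of fibroblasts and mesenchyme 1 was higher and 6 were lower, with intervals above 1 for 0 and below 1 for 3. Of all compared genes 38.4% were higher, with intervals above 1 for 4.88% and below 1 for 13.5%. The part of any of these marker lists in the ratio of Plagl1 was not tested. In the Hey2 line Plagl1 stood at a ratio of 0.878 with an interval that holds 1 (0.754 to 1.02). Dividing the Hey2 ratio by the Hey1 ratio gave 0.549 (0.453 to 0.665), an interval of counting error only. Its promoter window, printed above, holds 1 CACGTG box, which 7.15% of all windows also hold.

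Smaller ratios in the Hey1 line lay off 1 for counting error in 4 other members. Mest was lower in the induced Hey1 line at 0.880 (0.811 to 0.955), Meg3 at 0.812 (0.689 to 0.955) and H19 at 0.912 (0.874 to 0.951). Igf2 was higher at 1.06 (1.03 to 1.09). In all, the interval lay off 1 for 5 of 10 members, beside 18.3% of compared genes, above 1 for 2, beside 4.88%, and below 1 for 3, beside 13.5%. Members with more reads have narrower intervals, so this share follows depth as well as change. These small ratios also depend on the scaling. Under median ratio scaling the intervals of H19, Mest and Meg3 reached 1.01, 1.02 and 1.02 and so held 1. Those of Igf2r (1.06 to 1.19) and Peg3 (1.02 to 1.17) rose clear of it. This gave 4 members above 1 and 0 below, beside 10.1% and 7.67% of compared genes. Under upper quartile scaling 4 lay above 1 and 3 below, beside 8.25% and 9.08%. As deposited, the other 5 had intervals that hold 1, and these leave room for ratios from 0.992 to 1.12 for Igf2r and from 0.454 to 1.09 for Cdkn1c.

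In the Hey2 line 5 members were higher in the induced library by amounts beyond counting error. Peg3 led at 1.29 (1.20 to 1.38), followed by Igf2 at 1.21 (1.15 to 1.26) and Igf2r at 1.18 (1.10 to 1.27). H19 stood at 1.14 (1.01 to 1.30) and Grb10 at 1.14 (1.06 to 1.22). Meg3 was lower at 0.790 (0.745 to 0.839) and Mest at 0.875 (0.773 to 0.991). The interval lay off 1 for 7 of 10 members, beside 14.7% of compared genes, above 1 for 5, beside 8.04%, and below 1 for 2, beside 6.63%. Dlk1, at 1.05 (0.890 to 1.23), Plagl1 and Cdkn1c, at 0.725 (0.332 to 1.62), were within counting error. In the same pair of libraries all 7 compared markers of fibroblasts and mesenchyme were higher, where 49.4% of all compared genes were. Their intervals lay above 1 for 5 and below 1 for 0. The whole list of 10 such markers summed to 139 RPKM in the induced and 112 RPKM in the uninduced Hey2 line. The cardiomyocyte sum was 1113 RPKM in the induced and 1091 RPKM in the uninduced Hey2 line. Of 10 pluripotency markers 7 were higher and 3 lower, with intervals above 1 for 3 and below 1 for 2. The part of any of these cell types in the members' ratios was not tested.

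The ratios of the 2 inductions were set side by side, since they share no library. Igf2 was higher in both induced libraries beyond counting error, also under both scalings. Meg3 and Mest were lower in both beyond counting error as deposited and under upper quartile scaling, but not in the Hey1 line under median ratio scaling. Of the 10 members 6 went the same way and 4 opposite ways by their ratios alone, and for 3 of those 4 the quotient of the ratios lay off 1. These were Plagl1, as given, H19 at 1.26 (1.10 to 1.44) and Grb10 at 1.32 (1.02 to 1.70). A quotient off 1 says that the ratios differ, not that they lie on opposite sides of 1. The ratio of Plagl1 in the Hey2 line (0.754 to 1.02) and that of Grb10 in the Hey1 line (0.677 to 1.10) had intervals that hold 1. That of H19 in the Hey1 line held it under median ratio scaling (0.929 to 1.01). Under median ratio and upper quartile scaling the quotient's interval held 1 for Grb10 (0.963 to 1.60 and 0.986 to 1.64), while those of Plagl1 and H19 stayed off it. Of the 6 that went the same way, quotients also lay off 1 for Igf2 at 1.14 (1.08 to 1.20), Igf2r at 1.12 (1.02 to 1.23) and Peg3 at 1.26 (1.14 to 1.38). Under both scalings those of Igf2 and Peg3 stayed off 1, and that of Igf2r held it (0.963 to 1.16 and 0.985 to 1.19). The share of all compared genes with such directions or quotients was not computed. Both induced cultures had received doxycycline, so what the drug does cannot be told apart from what both Hey genes do.

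Beyond the 10 members, a list of 58 other imprinted genes was looked up, and 39 of them could be compared. In the induced and uninduced Hey2 line 49 and 46 of the 58 were listed. In the induced and uninduced Hey1 line, where the listing floor is 10 reads and not 5, 42 and 41 were. Genes blank in any library are not in the counts below. Between the uninduced lines 9 were higher and 9 lower by 2-fold, which is 46.2% of those compared, beside 32.8% of all genes. Between the induced lines 12 were higher and 8 lower, 51.3% beside 35.2%. Under median ratio scaling the counts were 9 and 12 between the uninduced lines, beside 1630 and 1767 of 10983 genes. Between the induced lines they were 10 and 11, beside 1750 and 1882. Rian, a host of small RNAs in the Meg3 cluster, stood at 39.6 and 48.0 RPKM in the induced and uninduced Hey2 line, against 4.21 and 5.93 RPKM in the induced and uninduced Hey1 line. It was 8.10-fold higher in the uninduced Hey2 line than in the uninduced Hey1 line (6.84 to 9.65), and Mirg, a microRNA host of the same cluster, was 6.08-fold higher (3.81 to 10.1).

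Meg3, Rian and Mirg, the 3 maternally expressed RNAs of that cluster, were therefore all several-fold higher in the Hey2 line, while Dlk1 was not. Rtl1, a protein gene of the cluster that lies opposite Meg3 in the annotation, was listed only in the induced Hey2 line, at 0.110 RPKM from 6 reads. With induction Rian, like Meg3, was lower, with ratios of 0.824 (0.760 to 0.894) in the Hey2 line and 0.710 (0.553 to 0.910) in the Hey1 line. For Mirg the ratios were 0.757 (0.583 to 0.984) in the Hey2 line and 0.987 (0.521 to 1.87) in the Hey1 line, the last from 22 and 22 reads.

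**Figure D5:**
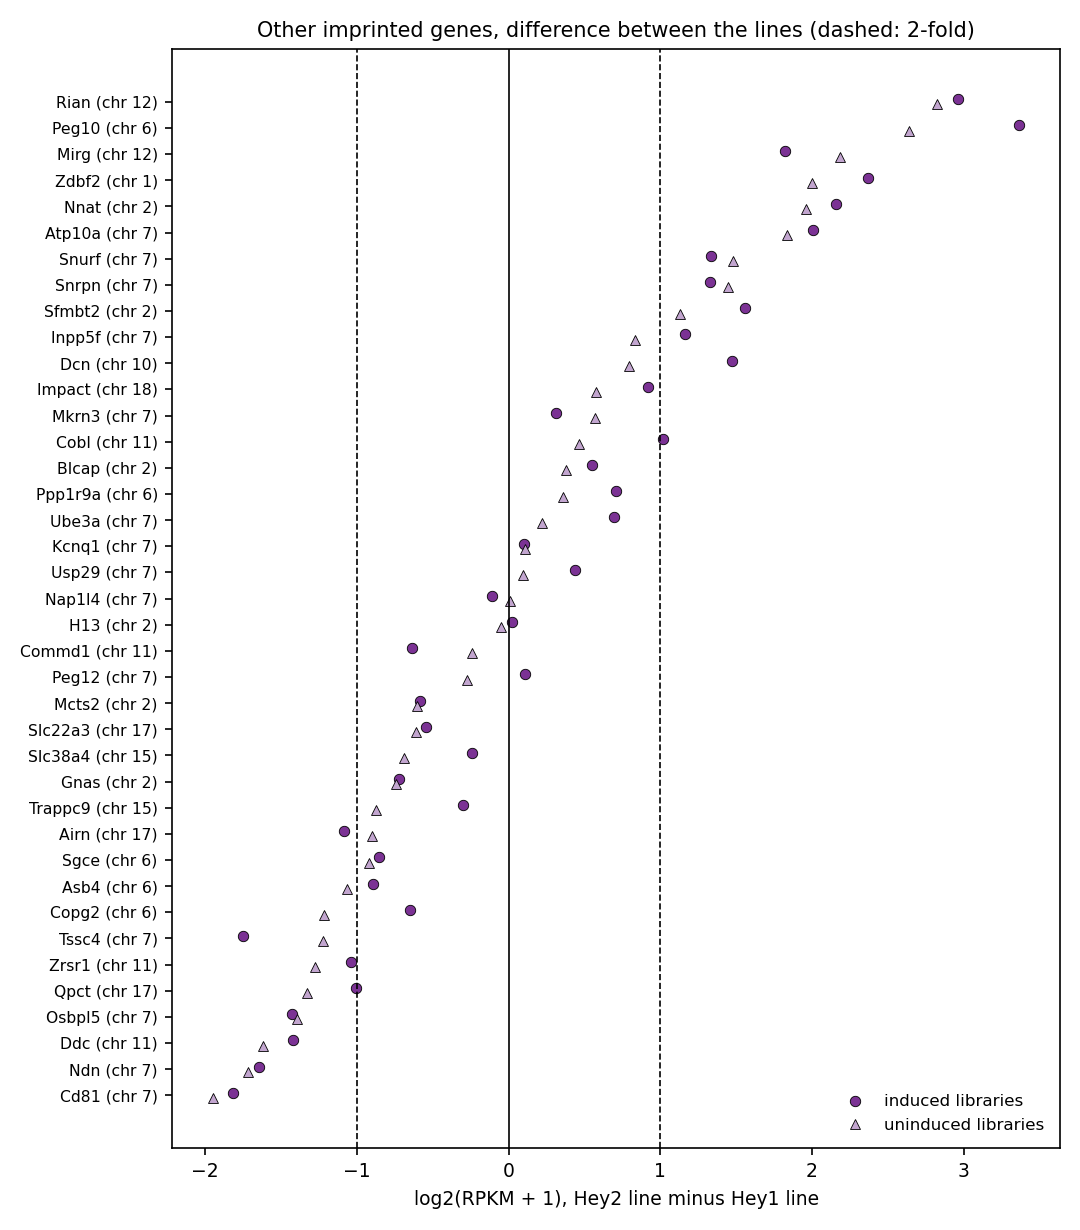
Difference in log2(RPKM + 1), Hey2 line minus Hey1 line, of the 39 other imprinted genes that could be compared (rows, with their chromosome), between the induced libraries (circles) and between the uninduced libraries (triangles). Rian, Peg10, Mirg and Zdbf2 have the largest positive differences between the uninduced libraries, Nnat and Atp10a also lie near 2 in both comparisons, and Cd81 at the bottom.

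As the plot of the other imprinted genes shows, Peg10, a retrotransposon-derived gene needed for the placenta in mice, also lay far up. It stood at 90.7 and 59.7 RPKM in the induced and uninduced Hey2 line, against 7.88 and 8.76 RPKM in the induced and uninduced Hey1 line. Peg10 was 6.82-fold higher in the uninduced Hey2 line than in the uninduced Hey1 line (5.89 to 7.92). It was also 1.52-fold higher in the induced than in the uninduced Hey2 line (1.42 to 1.63). Of the 39 compared genes Peg10 had the largest difference on the log2(RPKM + 1) scale in that induction. Zdbf2 was 5.92-fold higher in the uninduced Hey2 line than in the uninduced Hey1 line (4.95 to 7.11), and with Hey1 induction it was 1.62-fold lower (1.24 to 2.13). Dcn, a matrix proteoglycan gene, was 1.71-fold higher in the induced than in the uninduced Hey2 line (1.07 to 2.80).

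None of the 39 compared other imprinted genes passed 2-fold in either induction. Magel2 was blank in the Hey1 line and so was not compared. It stood lower in the induced Hey2 line, at 2.01 RPKM from 97 reads, against 5.15 RPKM from 138 reads in the uninduced one. With Hey2 induction 21 of the 39 were higher and 18 lower by any amount, with a median of 0.03, against 0.00 for all compared genes. With Hey1 induction 6 were higher and 33 lower, with a median of -0.13, against -0.06 for all genes, of which 38.4% were higher. Under median ratio scaling 13 were higher and 26 lower with Hey1 induction, with a median of -0.07 against 0.01 for all genes. Impact, a regulator of translation, had the largest difference on the log2(RPKM + 1) scale, with a ratio of 0.714 (0.574 to 0.885) of the induced to the uninduced Hey1 line, and Qpct, a glutaminyl cyclase gene, a ratio of 0.677 (0.459 to 0.991) at a lower level, whose interval held 1 under both scalings.

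The insulin-like growth factor axis around Igf2, Igf2r and Grb10 was described from a list of 28 genes, of which 20 could be compared. Between the uninduced lines 6 were 2-fold higher and 3 lower in the Hey2 line, 45.0% of them beside 32.8% of all genes. Under median ratio scaling 5 were higher and 4 lower, beside 1630 and 1767 of 10983 genes. As deposited, the median difference of the 20 axis genes was 0.45, against 0.20 for all genes. The binding proteins that hold IGFs outside the cell differed most and in both directions. Igfbp3 stood at 78.6 and 63.0 RPKM in the induced and uninduced Hey2 line, against 5.08 and 6.09 RPKM in the induced and uninduced Hey1 line, 10.3-fold higher between the uninduced lines (8.47 to 12.7). Igfbp5 stood at 7.43 and 6.60 RPKM in the induced and uninduced Hey2 line, against 69.1 and 65.9 RPKM in the induced and uninduced Hey1 line, 9.99-fold lower between the uninduced lines (8.71 to 11.5). Igfbp4 was 7.41-fold higher (5.10 to 11.1) and Igfbp2 6.69-fold higher (5.59 to 8.06) in the uninduced Hey2 line than in the uninduced Hey1 line.

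With Hey2 induction 16 of the 20 axis genes were higher, where 49.4% of all compared genes were, with a median of 0.14 against 0.00. Intervals lay above 1 for 7 of them and below 1 for 0, beside 8.04% and 6.63% of all compared genes. Igfbp3 was 1.25-fold higher in the induced than in the uninduced Hey2 line (1.15 to 1.35). With Hey1 induction 6 were higher and 14 lower, where 38.4% of all compared genes were higher, with a median of -0.05 against -0.06. Under median ratio scaling 11 were higher and 9 lower, with a median of 0.04 against 0.01 for all genes. Igfbp2 and Igfbp3 had ratios of 0.802 (0.623 to 1.03) and 0.834 (0.626 to 1.11) in that induction, within counting error.

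Of 16 genes of imprint control and DNA methylation or demethylation, 14 could be compared. Between the uninduced lines 5 were 2-fold higher and 0 lower in the Hey2 line, 35.7% beside 32.8% of all genes. Their median difference was 0.78, against 0.20 for all genes. Under median ratio scaling 3 were 2-fold higher and 1 lower, beside 1630 and 1767 of 10983 genes. Dnmt3b, a de novo DNA methyltransferase that is high in early embryonic cells, stood at 49.4 and 71.4 RPKM in the induced and uninduced Hey2 line, against 0.332 and 0.521 RPKM in the induced and uninduced Hey1 line. That was 137-fold higher between the uninduced lines (85.4 to 236), and in the induced Hey2 line its ratio to the uninduced one was 0.691 (0.650 to 0.736). Uhrf1, a partner of the maintenance methyltransferase, was 5.42-fold higher in the uninduced Hey2 line than in the uninduced Hey1 line (4.35 to 6.80). Dnmt3l was 4.38-fold higher (3.15 to 6.20) and Trim28, a corepressor that protects imprints, 2.28-fold higher (2.11 to 2.46). Tet2 went the other way between the uninduced lines, 2.51-fold lower in the Hey2 line as a plain ratio (1.91 to 3.32). On the log2(RPKM + 1) scale its difference was -0.90, under the 2-fold size. Zfp57, a zinc finger protein that recruits Trim28 to imprinted regions, was 1.55-fold lower in the induced than in the uninduced Hey1 line (1.19 to 2.03), and in the Hey2 line its ratio was 0.968 (0.826 to 1.14). Setdb1 had a ratio of 0.813 with Hey1 induction (0.631 to 1.05) and Tet2 one of 1.30 with Hey2 induction (0.976 to 1.74), both within counting error. No compared gene of this list passed 2-fold in either induction.

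Around Cdkn1c, 12 other inhibitors of cyclin-dependent kinases, D cyclins and their kinases were listed, and 10 could be compared. Between the uninduced lines 1 was 2-fold higher and 3 were lower in the Hey2 line, 40.0% beside 32.8% of all genes, with a median of -0.10 against 0.20. Cdkn1a, which encodes p21, stood at 25.4 and 25.2 RPKM in the induced and uninduced Hey2 line, against 132 and 127 RPKM in the induced and uninduced Hey1 line. It was 5.04-fold lower in the uninduced Hey2 line than in the uninduced Hey1 line (4.46 to 5.72), the same way as Cdkn1c at a far higher level. Cyclin D2 (Ccnd2) was 4.85-fold lower (4.23 to 5.57) and cyclin D1 (Ccnd1) 3.33-fold higher (2.50 to 4.50), while Cdkn2d, an inhibitor, was 3.31-fold lower (2.09 to 5.47). In the inductions no compared gene of this list passed 2-fold, and the largest differences on the log2(RPKM + 1) scale were those of Cdkn2a, Cdk4 and Cdk6. Cdkn2a had ratios of 1.49 with Hey1 (0.944 to 2.40) and 0.713 with Hey2 (0.423 to 1.21), both within counting error. Cdk4 had 0.745 with Hey1 (0.636 to 0.873) and Cdk6 1.44 with Hey2 (1.02 to 2.06).

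Genes whose pattern over the 4 libraries was most like that of Igf2, H19 and Mest, the 3 members with the highest RPKM summed over the 4 libraries, were found by the distance between log2(RPKM + 1) values after each gene's own mean was subtracted. For Igf2 these were Dctn1, Thra and Klhl18, at distances of 0.04 each. For H19 they were Filip1, the sodium-calcium exchanger gene Slc8a1 and Mmp15, at distances of 0.08, 0.08 and 0.11. For Mest they were Slc4a2, Prdx3 and Wnt5a, at distances of 0.03, 0.04 and 0.07. With 4 libraries, which share lines and treatments, likeness of this kind is common and is only a description.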

How the data were processed

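The values are RPKM that the authors deposited in 1 table with a column for each of the 4 RNA libraries, per the file headers. The same table holds a signed fold per line, a score the authors deposited, which equals the ratio of their RPKM (largest relative deviation 8.99e-09) and was not used further. Per the submitters' processing notes, the build was mm9 and the tools include Bowtie 1.0, MACS 1.4.1 and DESeq without a version. For the annotation, the counter and strand handling, nothing is given in the sources used here.

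A blank cell is a value under the listing floor. Whole reads were recovered from the steps of the RPKM with divisors, in M reads, of 10.375 and 5.75 for the induced and uninduced Hey2 line, and 7.5 and 7.4 for the induced and uninduced Hey1 line. They came out whole for 15363 of 15371 genes (99.9%), and the method was tested on simulated data. The floors read off these reads are 5 in the Hey2 line and 10 in the Hey1 line. Genes with 4 values and a mean of at least 1 RPKM were compared, after 6 exact copies were removed. With 1 library per group there is no test across cultures. Differences of log2(RPKM + 1), with a pseudocount of 1 RPKM, were called at 2-fold. Ratios have exact conditional binomial 95% intervals and levels exact Poisson ones, which cover counting error only and not the spread between cultures. PCR copies are not independent molecules, so the intervals can be too narrow even for counting error. Quotients of 2 ratios have exact conditional intervals.

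All 10 members are named, and of each other list up to 4 genes with the largest difference between the uninduced lines and up to 2 in each induction. A gene that this rule names is not reported here. The members and lists were chosen with earlier results of these data known. Promoters and microRNAs come from RefSeq GRCm38.p6, matched by symbol. No coordinate of the mm9 data is printed. Python 3.11.15, NumPy 2.4.6, pandas 2.3.3, SciPy 1.17.1 and Matplotlib 3.10.9 were used.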

Additional observations from a re-analysis of the deposited data

Results flagged for a closer look

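For 3 members the induction ratios lay on opposite sides of 1 and the interval of their quotient, Hey2 line over Hey1 line, lay off 1 for counting error. For Grb10 that interval held 1 under both other scalings (0.963 to 1.60 and 0.986 to 1.64), so its difference is not separate from counting error there. Plagl1 had a quotient of 0.549, H19 one of 1.26 and Grb10 one of 1.32. Plagl1 was 0.878 times its uninduced level in the Hey2 line, with an interval that holds 1 (0.754 to 1.02), and 1.60 times in the Hey1 line. H19 stood at 1.14 in the Hey2 line and 0.912 in the Hey1 line, where its interval held 1 under median ratio scaling (0.929 to 1.01). Grb10 stood at 1.14 in the Hey2 line and 0.865 in the Hey1 line, the latter with an interval that holds 1 (0.677 to 1.10). Opposite directions were thus not beyond counting error for Plagl1 and Grb10, nor for H19 under median ratio scaling. The quotients of Igf2, Igf2r and Peg3, which went the same way in both inductions, also lay off 1 as deposited. No share of all compared genes was computed for such quotients. Each ratio is 1 library over 1 library, so whether these differences exceed the spread between cultures was not tested.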

How the results depend on the processing

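No paired analysis was possible because each group is 1 library, and for the same reason no library could be left out. The member counts past 2-fold stayed within 1.5 times under another pseudocount, filters, readings of blank cells, scalings, and 2 alternatives chosen after seeing the data (2-fold on the plain ratio, and only the 9 members under their own symbol). The counts ran from 4 to 6 between the uninduced lines and from 5 to 7 between the induced lines, and were 0 in both inductions. At a size of 1.5-fold the Hey1 induction gave 1 member. Of 312 recomputed member differences 309 kept their sign. The 3 that changed it, Dlk1 once and Peg3 under both scalings, lay between the uninduced lines and under 2-fold. Counting-interval calls in the inductions, checked under both scalings after seeing the data, moved with Hey1 induction: 5 members lay off 1 as deposited, 2 above and 3 below. By median ratio 4 lay above and 0 below, and by upper quartile 4 above and 3 below, while Hey2 induction gave the same 7 members each time. With Hey1 induction the shares of all compared genes moved too. They were 4.88% above and 13.5% below as deposited, 10.1% and 7.67% by median ratio, and 8.25% and 9.08% by upper quartile. The quotient of Grb10, 1.32, became 1.24 and 1.27 with intervals that hold 1. Counts over all genes depended more on the setting: with Hey1 induction 15 genes passed 2-fold, 82 at a pseudocount of 0.1 RPKM, 127 with blank cells read as 0 and 107 on the plain ratio, and with Hey2 induction 5, 39, 58 and 61, or 17 with blank cells read as the listing floor. Depth limits Cdkn1c most, at 13 to 53 reads.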

Other observations

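Neighbouring imprinted genes differed between the lines in opposite directions in places, with examples chosen after their values were seen. Sgce, which shares a promoter region with Peg10, stood at 6.56 and 6.01 RPKM in the induced and uninduced Hey2 line, against 12.6 and 12.2 RPKM in the induced and uninduced Hey1 line. It was 2.04-fold lower in the uninduced Hey2 line than in the uninduced Hey1 line (1.53 to 2.75), while Peg10 was 6.82-fold higher. Snrpn and Ndn, both paternally expressed genes of the Prader-Willi region, split as well. Snrpn, which overlaps the Snurf row and is therefore uncertain, stood at 86.0 and 104 RPKM in the induced and uninduced Hey2 line, against 33.7 and 37.5 RPKM in the induced and uninduced Hey1 line. Ndn, a growth suppressor of neurons and muscle, stood at 14.9 and 15.1 RPKM in the induced and uninduced Hey2 line, against 48.8 and 51.9 RPKM in the induced and uninduced Hey1 line.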
